A study of Mus musculus with 18 samples.

Results

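Loss of a Foxa2 copy was examined here by pooling genotypes: 8 of the 18 libraries of the series came from mice with 1 Foxa2 copy and were compared with the other 10, from mice with 2 copies. The one-copy libraries were Foxa2+/- (n = 4, replicates 11 to 14) and double-heterozygous, Falcor+/-;Foxa2+/- (n = 4, replicates 15 to 18). The two-copy libraries were wild type (n = 5, replicates 1 to 5) and Falcor-/- (n = 5, replicates 6 to 10). The comparison asks which genes differ with Foxa2 dosage in lung cells captured by an epithelial surface protein, whatever the state of Falcor. Falcor is the long non-coding RNA next to Foxa2. A gene was reported when its difference had the same sign in both one-copy genotypes against each two-copy genotype, and 1717 of 15249 tested genes met this and passed the test.

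All mice were 10 to 12 weeks old, and their cells were captured on magnetic beads by EpCAM, an epithelial surface protein, before total RNA was extracted. Falcor was not held constant. The two-copy genotypes carried 2 and 0 Falcor copies and the one-copy genotypes 2 and 1, so the pools differ in both genes. The labels name whole-animal genotypes and give neither the strain nor the sex nor the way each allele was made, and nothing says whether a library came from 1 animal or from pooled animals. The p-values measure the spread between these libraries, which may be partly technical.

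FOXA2 is a forkhead transcription factor that binds its sites in closed chromatin and opens them for other factors. FOXA1 and FOXA3 recognize the same core sequence, and FOXA1 and FOXA2 act partly in each other's place in the developing lung. In airway epithelium, loss of Foxa2 is known for goblet cell metaplasia, in which secretory cells take on mucus production, and FOXA2 also acts on surfactant genes in alveolar type 2 cells.

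Levels are log2 values that the authors had quantile-normalized, so each difference is relative to the other genes of a library, and the read depth behind a level is unknown. A difference of 1 is a doubling. Across genes, libraries of a genotype correlated with Pearson's r of 0.960 to 0.981, and libraries with different copy numbers with 0.934 to 0.973. Epithelial genes were present in every library: Epcam (13.75 to 14.48 over the 18 libraries), Cdh1 (15.36 to 15.88) and the surfactant gene Sftpc (18.56 to 18.73), which sits at the ceiling of the scale. Other cells were also present: Ptprc, which encodes the leukocyte antigen CD45, lay as high as Epcam, at 13.80 to 14.57, and the endothelial gene Pecam1 at 10.95 to 14.43. The libraries are thus not purely epithelial. The mean of 36 endothelial markers reached 12.38 ± 0.55 (SD, n = 5) with the wild-type genotype. Falcor-/- libraries had 11.54 ± 0.69 (SD, n = 5). Foxa2+/- libraries had 10.41 ± 0.21 (SD, n = 4) and double-heterozygous ones 9.97 ± 0.27 (SD, n = 4). It therefore separates the pools, from 9.69 to 10.69 with 1 copy and from 10.75 to 12.84 with 2 copies. In bulk samples, fewer cells of a type and less RNA per cell cannot be told apart.

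Foxa2 (ENSMUSG00000037025, chromosome 2) was lower in the one-copy libraries. Its levels were 12.94, 12.99, 13.03, 13.03 and 12.83 in wild type and 12.85, 12.58, 12.99, 12.83 and 12.42 in Falcor-/-. They were 12.38, 12.38, 12.35 and 12.47 in Foxa2+/- and 12.58, 12.34, 12.40 and 12.12 in double-heterozygous libraries. Foxa2+/- libraries sat close together, and the pools overlapped only because Falcor-/- replicate 10 lay below Foxa2+/- replicate 14 and double-heterozygous replicate 15. The pooled difference was -0.47 (SE 0.07), so that the one-copy level was 72.1% of the two-copy level (limma adjusted p = 0.00034, exact permutation p = 0.000183, two-sided). By pair it was -0.57 against wild type and -0.34 against Falcor-/- for Foxa2+/-, and -0.60 and -0.37 for double-heterozygous libraries. These 4 pairs share libraries and are not separate tests.

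Both other Foxa genes rose where a Foxa2 copy was missing. Foxa1 levels were 13.50, 13.28, 13.37, 13.16 and 13.14 in wild type and 13.35, 13.47, 13.64, 13.13 and 13.02 in Falcor-/-. They were 13.65, 13.71, 13.49 and 13.63 in Foxa2+/- and 13.67, 13.76, 13.78 and 13.51 in double-heterozygous libraries. The pools overlapped at their edges, and the difference was 0.34 (SE 0.08, limma adjusted p = 0.00751). Foxa3, a gene of goblet cells and of the gut and liver, moved further. Its levels were 6.73, 6.27, 5.91, 5.91 and 6.35 in wild type and 5.42, 6.54, 6.45, 6.02 and 5.66 in Falcor-/-. They were 6.80, 7.54, 7.60 and 7.12 in Foxa2+/- and 7.35, 7.17, 7.12 and 6.02 in double-heterozygous libraries. All one-copy libraries but double-heterozygous replicate 18 lay above every two-copy library, and Foxa3 rose by 0.96 (SE 0.22, limma adjusted p = 0.00713). With the endothelial mean as a covariate, these estimates were -0.10 for Foxa1, 0.53 for Foxa3 and -0.84 for Foxa2, and none passed (limma adjusted p = 1 for Foxa1 and Foxa3, and 0.0541 for Foxa2). With Foxa2+/- as the sole one-copy group Foxa1 missed the threshold (0.31, limma adjusted p = 0.0508), and with double-heterozygous libraries alone Foxa3 did (0.79, limma adjusted p = 0.0762).

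The Falcor transcript itself (9030622O22Rik, ENSMUSG00000086141, chromosome 2) was higher with 1 Foxa2 copy. It was called under all 33 alternatives and was the only gene called with the endothelial mean as a covariate. Its levels were 10.72, 10.21, 9.68, 9.71 and 10.59 in wild type, and 6.13, 5.39, 6.01, 7.27 and 6.23 in Falcor-/-. They were 11.46, 11.96, 11.66 and 11.72 in Foxa2+/- and 11.61, 11.65, 11.86 and 11.50 in double-heterozygous libraries. The pools did not overlap. The pooled difference of 3.48 (SE 0.20, limma adjusted p = 5.24e-08) mixes a difference of 1.52 between Foxa2+/- and wild type with one of 5.45 between double-heterozygous and Falcor-/- libraries. By their label the Falcor-/- libraries carry 0 Falcor copies. The missing Falcor copy of the double-heterozygous label does not show in this level. Without strand information for the counting, reads of transcripts on the opposite strand cannot be told apart.

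**Figure D1:**
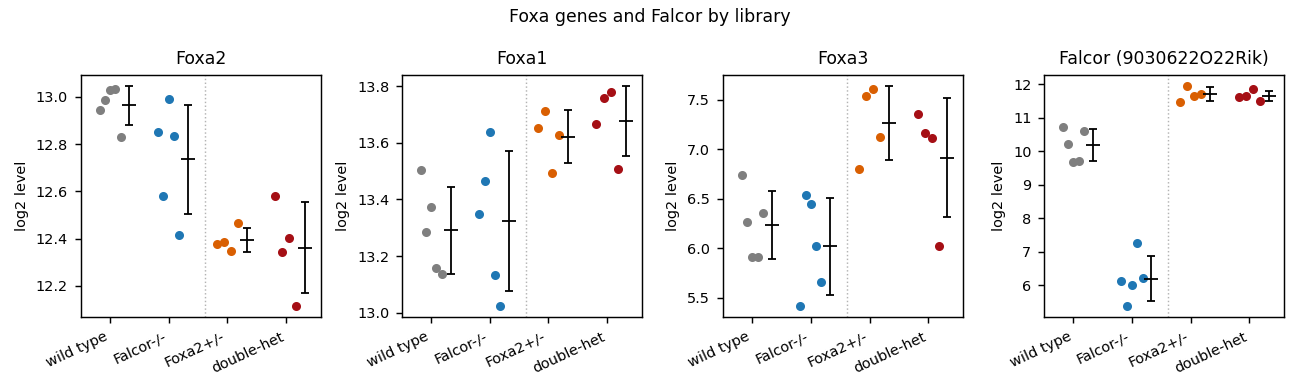
Log2 level of Foxa2, Foxa1, Foxa3 and the Falcor transcript in each of the 18 libraries (points) by genotype, with mean and SD at the right of each group (n = 5, 5, 4 and 4); a dotted line divides 2 Foxa2 copies on the left from 1 copy on the right. Foxa2 lies lower and the other 3 higher with 1 copy, and Falcor-/- libraries hold the lowest Falcor levels, from 5.39 to 7.27.

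Over all genes, 1845 of 15249 (12.1%) passed the pooled test at a limma adjusted p below 0.05, 920 higher (6.03%) and 925 lower (6.07%) with 1 copy. This balance was not kept in every subset: without Foxa2+/- replicate 12 the calls were 569 higher and 770 lower, and without Foxa2+/- replicate 13 they were 605 and 803. Of the 1845, 853 higher (5.59%) and 864 lower (5.67%) had the same sign in all 4 genotype pairs, 1717 in all (11.3%). The falls were larger than the rises. The median difference was 0.36 among the 853 higher and -0.84 among the 864 lower, and 71 of the higher against 371 of the lower moved by at least 1 log2 unit. Most rises were small, with 576 under 0.5 log2 units, against 251 of the falls. The shared sign alone was common, since 5348 genes (35.1%) had it whether called or not, 3414 of them higher (22.4%) and 1934 lower (12.7%). The median difference over all tested genes was 0.034. The 8 and 10 libraries did not overlap for 226 called genes (1.48%), of which 43 were higher (0.282%) and 183 lower (1.2%).

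The number of calls differed between the genotype pairs. Foxa2+/- against wild type called 932 genes (6.11%) and double-heterozygous against Falcor-/- 785 (5.15%). Foxa2+/- against Falcor-/- called 2540 (16.7%) and double-heterozygous against wild type 2254 (14.8%). Genes of the pooled set that were also called in each of the 4 pairs numbered 250, 34 higher and 216 lower. Within a pool, Falcor-/- differed from wild type in 1444 genes (9.47%) and the double-heterozygous from Foxa2+/- libraries in 370 (2.43%), and 149 and 25 of the 1717 genes were among these. The remaining 128 called genes did not have the same sign in every pair. Among them was Camk2b, a calmodulin-dependent kinase subunit, at 9.33 to 10.48 in Falcor-/- and 2.69 to 5.08 in Foxa2+/- libraries. Double-heterozygous replicate 15 was at 10.49 for this gene and the other 3 at 5.18 to 5.51, and wild-type replicate 4 at 9.89 and the other 4 at 4.68 to 6.66. The ferritin pseudogene Ftl2-ps was at 12.76 to 13.91 in Falcor-/-, at 4.43 to 6.06 in wild type and Foxa2+/-, and at 6.28, 5.81, 12.64 and 8.17 in double-heterozygous libraries. Cst8, a cystatin gene near Foxa2 on chromosome 2, ran from 4.68 to 9.09 in wild type and from 9.41 to 11.43 in the other genotypes.

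**Figure D2:**
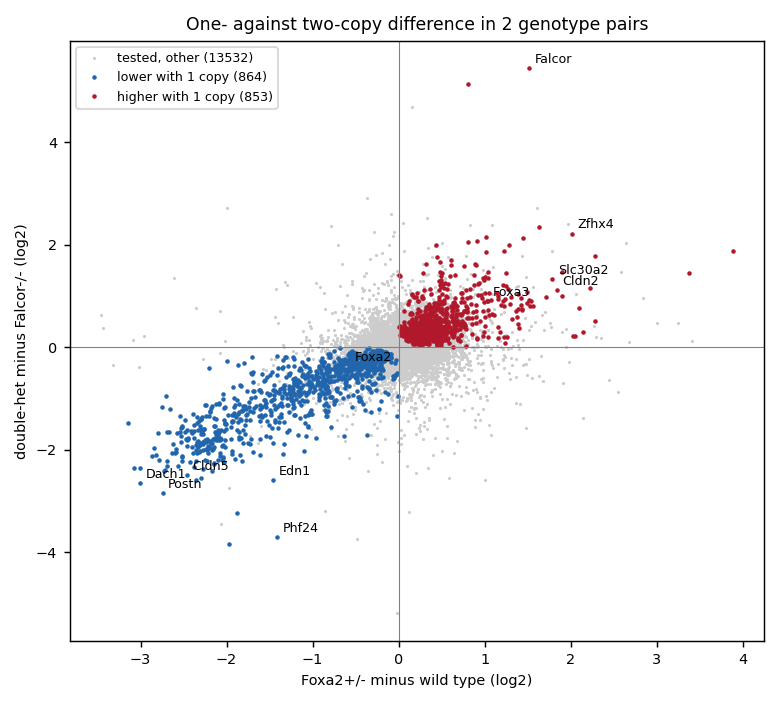
Difference of mean log2 level for each of 15249 genes, Foxa2+/- minus wild type on the horizontal axis and double-heterozygous minus Falcor-/- on the vertical axis; these pairs share no library. Genes called with the same sign in all 4 pairs are red (853 higher) or blue (864 lower), and the blue cloud reaches further from 0 than the red one.

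The 12 largest rises without overlap of the pools ranged from 0.90 to 2.12. Of the 40 rises without overlap that could be named here, 0 belong to the endothelial or mesenchymal lists. These lists hold 36 and 38 of the 15249 tested genes, so 0 of 40 says little. Zfhx4, which encodes a zinc finger homeobox transcription factor, rose most. Its level ran from 7.12 to 8.91 (median 8.23) with 1 copy and from 5.41 to 7.0 (median 6.06) with 2 copies, a difference of 2.12 (SE 0.22, limma adjusted p = 2.33e-05). The gene was chosen from those without overlap of the pools, so that separation is part of the choice and no permutation p is given for it.

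Transporter and channel genes were among these rises. Slc30a2, which encodes the vesicular zinc transporter ZnT2, lay between 9.61 and 10.37 (median 10.05) with 1 copy and between 7.85 and 9.09 (median 8.47) with 2 copies, a rise of 1.56 (SE 0.15, limma adjusted p = 2.21e-05). It was 1.79 higher in Foxa2+/- than in wild type and 1.33 higher in double-heterozygous than in Falcor-/- libraries, 2 pairs that share no library. Slc6a20a, a transporter of proline and other imino acids, ran from 8.21 to 9.15 with 1 copy and from 6.66 to 8.13 with 2 copies, a rise of 1.28 (SE 0.13). Abcc8, the sulfonylurea receptor subunit of ATP-sensitive potassium channels, rose by 1.99 (SE 0.45, limma adjusted p = 0.00711) over a wide two-copy range, from 2.31 to 6.67. Its low two-copy values were those of Falcor-/- libraries, whose mean was 4.69 against 6.22 in wild type. With wild type as the sole two-copy group, or double-heterozygous libraries as the sole one-copy group, Abcc8 did not pass. Slc5a1, the sodium-glucose cotransporter SGLT1, rose by 0.63 (SE 0.10, limma adjusted p = 0.000629).

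Cldn2 and Mpzl2 code for proteins of cell contacts. Cldn2, a claudin that forms cation pores in tight junctions, ran from 8.17 to 9.62 (median 8.26) with 1 copy and from 6.28 to 7.48 (median 6.99) with 2 copies, and rose by 1.48 (SE 0.20, limma adjusted p = 0.000103). Mpzl2, an adhesion molecule of epithelia, ran from 11.10 to 11.92 and from 9.97 to 11.06, a rise of 0.99 (SE 0.15). The list of epithelial junction genes as a whole gave 2 higher of 34 (Ppl, which encodes periplakin, 0.39, and Marveld3, 0.20) and 0 lower, with a median difference of 0.08. Its share called higher was 5.88%, against 6.03% of all genes.

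Enzymes and signalling genes made up the others. Vnn1, the pantetheinase that releases cysteamine, was at 11.83 to 12.42 (median 12.04) with 1 copy and 10.22 to 11.47 (median 10.87) with 2 copies, a rise of 1.21 (SE 0.15, limma adjusted p = 4.25e-05). Prmt8, an arginine methyltransferase, rose by 1.69 (SE 0.29), from a two-copy range of 8.91 to 10.84 to a one-copy range of 11.02 to 12.46. The proteases Adamts3 and Corin rose by 1.08 (SE 0.17) and 1.06 (SE 0.16). Adora1, the adenosine A1 receptor, rose by 0.93 (SE 0.16). Dclk1, a microtubule-associated kinase that marks tuft cells, rose by 0.90 (SE 0.15). With the endothelial mean as a covariate none of these 12 rises passed, while all 12 estimates stayed above 0. They were as large or larger for Prmt8 (2.44), Abcc8 (2.39), Slc30a2 (1.72, SE 0.35, limma adjusted p = 0.273), Cldn2 (1.59) and Vnn1 (1.23), and smallest for Adamts3 (0.54) and Dclk1 (0.37). With the mesenchymal mean as a covariate, an alternative added after the data were seen, Zfhx4, Slc30a2, Cldn2 and Slc6a20a still did.

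**Figure D3:**
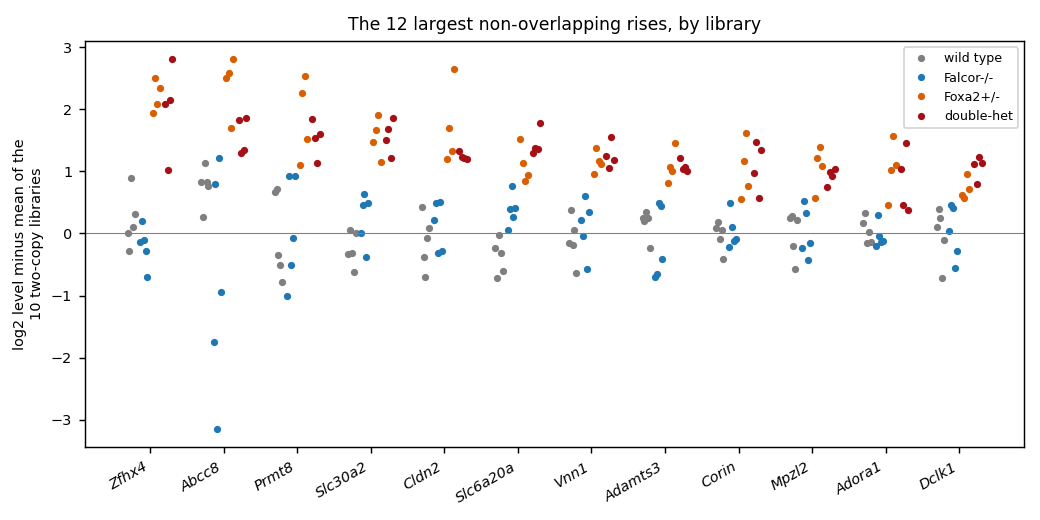
The 12 largest rises without overlap of the pools: log2 level of each library minus the mean of the 10 two-copy libraries, coloured by genotype. By the choice of these genes, one-copy points of a gene lie above all its two-copy points. The Falcor-/- libraries of Abcc8 reach lowest.

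The rises with the smallest p among the other non-overlapping genes were of smaller size. Snd1, which encodes a nuclease and coactivator, rose by only 0.33 (SE 0.04, limma adjusted p = 3.61e-05), from a two-copy range of 13.92 to 14.30 to a one-copy range of 14.39 to 14.57. C6, a component of the complement attack complex, rose by 0.87 (SE 0.12), Atg13 of the autophagy starting complex by 0.37 (SE 0.05), and Mut, methylmalonyl-CoA mutase of mitochondria, by 0.32 (SE 0.05). Bnipl, Extl1 and the zinc finger factor gene Plagl2 rose by 0.57, 0.81 and 0.39. These 7 genes too were chosen from those without overlap of the pools, so that separation is part of the choice.

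Of 18 tested goblet cell and mucin genes 7 were higher and 0 lower, where 6.03% of all genes were called higher. Their median difference was 0.34, against 0.034 over all genes. The gel-forming mucin Muc5ac ran from 9.02 to 10.30 (median 9.41) with 1 copy and from 7.06 to 10.09 (median 8.66) with 2 copies, a difference of 1.08 (SE 0.29, limma adjusted p = 0.0235). Muc5b, the other gel-forming airway mucin, ran from 14.22 to 15.75 (median 14.61) and from 12.35 to 14.89 (median 13.98), a difference of 0.98 (SE 0.28, limma adjusted p = 0.0285). Both overlapped between the pools, and wild type stood nearer the one-copy genotypes than Falcor-/- did. In the order wild type, Falcor-/-, Foxa2+/- and double-heterozygous, Muc5ac means were 9.0, 7.88, 9.48 and 9.55 and Muc5b means 14.37, 13.22, 14.86 and 14.70. Against wild type alone the differences were 0.48 and 0.55 for Muc5ac, and 0.48 and 0.32 for Muc5b, and with wild type as the sole two-copy group neither passed. Muc5ac was also lost without double-heterozygous replicate 17 (0.95, limma adjusted p = 0.0558). Muc5b was lost without wild-type replicate 4, Falcor-/- replicate 10, Foxa2+/- replicate 14 or double-heterozygous replicate 17 (0.81 to 0.93, limma adjusted p = 0.0523 to 0.0634).

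Among the other mucus genes that rose, Muc1 and Fcgbp differed less between the two-copy genotypes. Muc1, a membrane mucin, lay at 15.59, 15.62, 15.91 and 16.02 in the order wild type, Falcor-/-, Foxa2+/- and double-heterozygous, a rise of 0.36 (SE 0.08, limma adjusted p = 0.00598). Fcgbp, a mucus-associated protein, lay at 10.09, 10.25, 10.88 and 11.23, a rise of 0.88 (SE 0.21, limma adjusted p = 0.00975). Ern2, the mucous cell sensor of unfolded proteins, rose by 0.98 (SE 0.23), and Slc26a4, the anion exchanger pendrin, by 1.26 (SE 0.31). The level of Slc26a4 ran from 8.01 to 9.83 in wild type and from 7.06 to 8.28 in Falcor-/- libraries. Spdef, a regulator of the goblet programme, and Agr2, a disulfide isomerase needed for mucin folding, did not pass, with differences of 0.10 and 0.33 (limma adjusted p = 0.792 and 0.565). With single libraries left out 5 to 7 of the 18 were called higher. The list count was smaller with 1 genotype as a pool: 3 higher and 1 lower (median 0.15) with wild type as the sole two-copy group, 2 higher (median 0.07) with Foxa2+/- as the sole one-copy group, and 3 higher and 1 lower (median 0.50) with double-heterozygous libraries alone. Muc1, Fcgbp and Ern2 were not called with Foxa2+/- alone, and Ern2 and Slc26a4 not against wild type alone. With the endothelial mean as a covariate 0 passed and the list's median was 0.22, and the part of that mean in these rises was not tested.

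Among 23 lung genes associated with FOXA2, 5 were higher and 2 lower, where 6.03% of all genes were called higher and 6.07% lower. Of the 23, 22 stand in other lists as well. The higher count was 3 without double-heterozygous replicate 17 and 9 without Falcor-/- replicate 8. Alox15, the arachidonate 15-lipoxygenase that is induced in type 2 airway inflammation, rose by 1.64 (SE 0.33, limma adjusted p = 0.00335), from a two-copy range of 6.34 to 8.46 (median 7.43) to a one-copy range of 7.56 to 9.87 (median 9.39). In the type 2 inflammation list, Alox15 was the 1 of 16 genes called higher, and 3 were lower (Postn, Gata3 and Il4ra). Cebpa, which encodes a transcription factor of surfactant-making cells, rose by 0.22 (SE 0.05, limma adjusted p = 0.00456) with no overlap between the pools, from 15.40 to 15.66 with 1 copy and from 15.11 to 15.36 with 2 copies. Foxa3, Muc5ac and Muc5b are the other risers of this list. Sox17 and Vegfa fell and are described with the vessel and alveolar type 1 genes.

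Alveolar type 1 genes fell as a group. Type 1 cells are the thin cells of gas exchange, and 14 of their 25 tested markers were lower and 0 higher, where 6.07% of all genes were called lower. The median difference was -0.49. Ager, the receptor for advanced glycation end products, ran from 16.11 to 16.50 (median 16.23) with 1 copy and from 16.41 to 16.98 (median 16.81) with 2 copies, a difference of -0.49 (limma adjusted p = 0.00111). Rtkn2 (-0.91, SE 0.16) and Sema3e (-0.57, SE 0.09) also fell. Hopx, a homeodomain protein of type 1 cells (-0.72, SE 0.15), Pdpn, which encodes podoplanin (-0.85, SE 0.20), and Igfbp2 (-1.26, SE 0.27) did so too. Cav1 and Vegfa, which type 1 cells express beside other cells, fell with differences of -0.89 and -0.53. Aqp5, the water channel of type 1 and gland cells, did not pass (0.14, limma adjusted p = 0.437).

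The endothelial level lay lower in the same libraries. The type 1 list mean was 13.36 to 13.66 with 1 copy and 13.50 to 14.25 with 2 copies, and wild-type replicate 3, the lowest two-copy library, also had the lowest endothelial mean of wild type (11.45 against 12.37 to 12.84). Adjusted for the endothelial mean, 11 of the 14 falls changed sign, 0 passed and the list's median was 0.18. With any 1 library left out, 14 or 15 genes of the list were called lower. The part of the endothelial level in the type 1 fall was not tested.

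Over all genes 6.03% were called higher and 6.07% lower. Of 26 alveolar type 2 markers 1 was higher (Muc1, shared with the mucus list) and 0 were lower, with a median difference of 0.13. Without Falcor-/- replicate 8, 6 of them were higher. In the same order of genotypes the type 2 list means were 16.34, 16.33, 16.51 and 16.47. Sftpc differed by -0.03 (limma adjusted p = 0.825), and as its values sit at the ceiling of the normalized scale a difference there could be hidden. Club cell genes shared a direction, with all 28 differences above 0 and a median of 0.29. Of these 28 genes 2 were called higher, among them Itm2a (0.60), which did not have the same sign in every pair. The count of club genes called higher was 0 without Foxa2+/- replicate 12 and 12 without Falcor-/- replicate 9, so it rests on the choice of libraries. The club secretoglobin Scgb1a1 differed by 0.01. Ciliated cell genes gave 3 lower of 40, a share of 7.5% that is near that of all genes. They were Dnaic1, Tuba1a and Tppp3, of which only Tuba1a had the same sign in all pairs. The ciliated count was 11 without Falcor-/- replicate 7 and 1 without any of 10 other libraries, and it was 17 with Foxa2+/- and 0 with double-heterozygous libraries as the sole one-copy group. Of all 15249 genes, 821 were lower with Foxa2+/- alone and 859 with double-heterozygous libraries alone. Basal cell genes gave 3 lower of 16 (Icam1, Pdpn and Itga6), while 10 of the 16 differences were above 0 and the median was 0.10. Neuroendocrine genes gave 0 of 15.

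Epithelial transcription factor genes gave 7 higher and 2 lower of 45, where 6.03% of all genes were called higher and 6.07% lower, and all 9 had the same sign in the 4 pairs. Without Falcor-/- replicate 8 the higher count was 13, and with Foxa2+/- as the sole one-copy group 3 were higher and 3 lower. Ehf, an ETS family factor of airway epithelium, rose by 0.49 (SE 0.08, limma adjusted p = 0.000532), from 12.50 to 13.05 with 2 copies to 13.06 to 13.50 with 1 copy. The ETS factor Elf5 rose by 0.40, the sterol regulatory factor Srebf1 by 0.27, the epithelial factor Grhl2 by 0.29, Foxp2 by 0.41 and Irx2 by 0.46. Hopx and Wwtr1, which encodes the Hippo pathway coactivator TAZ, fell with differences of -0.72 and -0.30. Nkx2-1, the lung lineage factor, did not pass (0.16, limma adjusted p = 0.105). Adjusted for the endothelial mean, 0 of the 45 passed and 4 of the 9 changed sign.

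Genes of xenobiotic metabolism and glutathione gave 8 higher and 1 lower of 38, with a median of 0.21, where 6.03% of all genes were called higher. The higher count was 5 without Foxa2+/- replicate 12 or double-heterozygous replicate 17 and 13 without Falcor-/- replicate 9. It was 3 with Foxa2+/- as the sole one-copy group and 4 with wild type as the sole two-copy group. Srxn1, which encodes sulfiredoxin and is a target of the oxidant sensor NRF2, rose by 0.60 (SE 0.08, limma adjusted p = 5.7e-05), from 10.82 to 11.27 with 2 copies to 11.36 to 11.82 with 1 copy. Its 4 pair differences lay between 0.59 and 0.62. Ces1f, a carboxylesterase, rose by 1.18 (SE 0.22) and Cyp1b1, a cytochrome P450 induced by aryl hydrocarbons, by 1.10 (SE 0.21). The NRF2 targets Nqo1 and Txnrd1 rose by 0.60 and 0.21, the glucuronosyltransferase gene Ugt1a6a by 0.56 and the glutathione synthetase gene Gss by 0.45. Nqo1 differed by 0.15 between Foxa2+/- and wild type and by 1.04 between double-heterozygous and Falcor-/- libraries. Gpx3, an extracellular glutathione peroxidase, fell by 1.97 (SE 0.25), with 10.23 to 11.38 in one-copy and 11.81 to 13.84 in two-copy libraries. Ces1f and Ugt1a6a belong to families with near-identical members, so shared reads make their values uncertain.

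Lipid and retinoid genes gave few calls, 8.33% and 10.5% of the lists, all higher, where 6.03% of all genes were called higher. Cholesterol and fatty acid synthesis gave 3 higher of 36 (Srebf1, the choline kinase gene Chka, 0.19, and the acetyl-CoA carboxylase gene Acaca, 0.41) and 0 lower, with a median of 0.10, and 7 were higher without Falcor-/- replicate 8. Retinoid metabolism gave 2 higher of 19, Rbp4, the retinol carrier of blood (0.69, SE 0.14, limma adjusted p = 0.0031), and Rbp2 (0.75, SE 0.23, limma adjusted p = 0.0434).

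Markers of vessels fell nearly throughout. All 36 endothelial markers were lower in the mean, 32 passed, 31 of these with the same sign in every pair and 21 without overlap, and the median difference was -1.96. Over all genes, 6.07% were called lower, 5.67% with the same sign in every pair, and 1.2% were lower without overlap. Cldn5, the claudin of endothelial tight junctions, ran from 10.32 to 11.50 (median 10.77) with 1 copy and from 12.32 to 14.31 (median 13.31) with 2 copies, a difference of -2.48 (limma adjusted p = 2.33e-05). Tmem100, a membrane protein of lung endothelium, ran from 10.24 to 11.55 and from 11.89 to 13.94, and Robo4, a guidance receptor of vessels, from 7.95 to 8.95 and from 9.74 to 11.55. Both fell, by a difference of -2.22 and -2.12. Sox17, an endothelial transcription factor that the lung endoderm also uses, fell by 2.08 (SE 0.25). Epcam, the sorting antigen, differed by 0.06 (limma adjusted p = 0.683) between the pools. The defining markers Pecam1 and Cdh5 were still at 10.95 and 10.69 or more in every library. Within the two-copy pool the list means were 12.38 and 11.54.

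Of 38 markers of fibroblasts, smooth muscle and mesothelium, 21 were lower and 0 higher, where 6.07% of all genes were called lower. Their median was -1.06. Postn, which encodes the matrix protein periostin, ran from 7.17 to 9.03 (median 8.19) with 1 copy and from 9.97 to 12.07 (median 10.77) with 2 copies, a difference of -2.79 (limma adjusted p = 2.33e-05). Mfap4, a microfibril protein, and Inmt, a methyltransferase of lung stroma, fell with differences of -2.50 and -2.28. By genotype, in the order used above, the list means were 10.87, 10.05, 9.73 and 9.02, and here the pools overlapped, because Foxa2+/- replicate 14 had a mean of 10.70. Col1a2, a fibrillar collagen, shows the same library at the top of the one-copy range, which reached 13.51. Without that library and Falcor-/- replicate 10, an alternative added after the data were seen, 22 of the 38 were lower.

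The 12 largest falls without overlap ran from -2.83 to -2.44. Dach1, a transcription factor gene, fell by 2.83 (SE 0.26), from 8.13 to 10.38 (median 9.47) with 2 copies to 5.56 to 7.46 (median 6.59) with 1 copy. The membrane collagen Col13a1 (-2.71), the nitric oxide receptor subunit Gucy1b1 (-2.58), the acetylcholinesterase tail Colq (-2.56) and the matricellular gene Ccn5 (-2.49) fell as well. So did the amino acid transporter gene Slc7a10 (-2.49), the kinase anchor Akap12 (-2.47) and the procollagen protease enhancer Pcolce2 (-2.45). Of the 178 falls without overlap that could be named, 29 are in the endothelial or mesenchymal lists. These lists hold 36 and 38 of the 15249 tested genes. Among the other falls without overlap, those with the smallest p were Edn1, which encodes the vessel-constricting peptide endothelin 1 (difference of -2.03, SE 0.18, limma adjusted p = 1.01e-05), Unc45b, a myosin chaperone (difference of -2.12), and the ceramidase gene Acer2 (difference of -2.22). The difference of Edn1 was -1.46 between Foxa2+/- and wild type and -2.59 between double-heterozygous and Falcor-/- libraries. Gjc1, Ddah1, Gng11, Tmem204, Crispld2, Raver2 and the blood and vessel transcription factor gene Gata2 also fell, with differences from -2.37 to -1.49.

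Hsd11b1, which encodes the enzyme that regenerates active glucocorticoid, was the only leading gene with a FOXA core in its promoter window. It ran from 7.58 to 8.58 (median 8.36) with 1 copy and from 9.73 to 11.65 (median 10.84) with 2 copies, a difference of -2.44 (SE 0.23, limma adjusted p = 1.75e-05). The core searched was TGTTTAC on either strand in the 250 bases before the start in RefSeq's table on GRCm38.p6. Of the 44 leading genes 29 had a window in the table, and only that of Hsd11b1 held the core, 138 bases before the start and on the strand opposite to the gene. Its window, chr1:193242361-193242610 on the minus strand, reads 5′ to 3′ as follows, with the core in capitals as it appears on the gene's strand.
Hsd11b1: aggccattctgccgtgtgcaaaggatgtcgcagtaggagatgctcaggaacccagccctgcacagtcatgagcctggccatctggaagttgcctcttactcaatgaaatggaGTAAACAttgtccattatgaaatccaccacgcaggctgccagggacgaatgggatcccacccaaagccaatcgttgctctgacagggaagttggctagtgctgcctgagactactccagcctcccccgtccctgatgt
Counted by gene, the core stood in 3.04% of 625 higher genes and 2.37% of 633 lower genes with the same sign in all pairs, against 2.79% of the 11131 tested genes with a window and 3.54% of all 27025 genes in the table. These shares lie close to each other. A match is a description of letters and does not show binding, and sites outside these 250 bases were not searched.

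**Figure D4:**
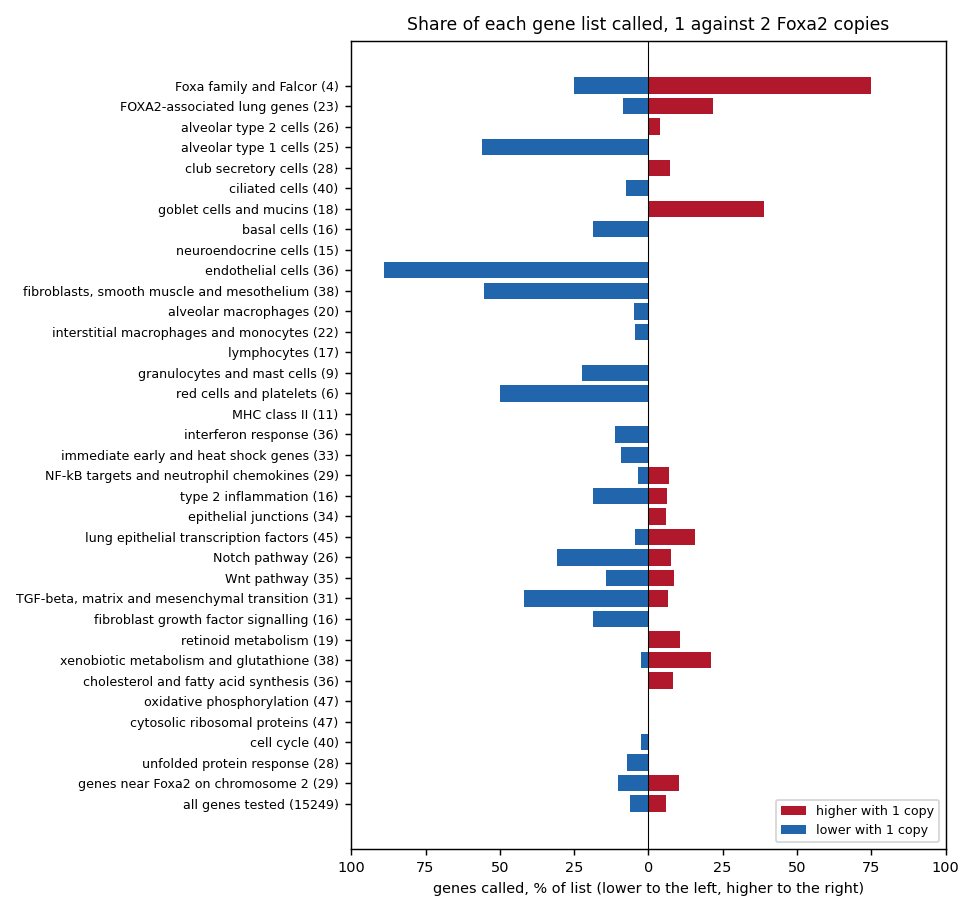
Share of each gene list called lower (blue, to the left) or higher (red, to the right) with 1 Foxa2 copy, in percent of the tested genes of the list, whose number stands in parentheses. The bottom bar gives all 15249 genes (6.07% lower, 6.03% higher); the endothelial list reaches furthest to the left, with 32 of 36 genes.

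Signalling lists held both falls and rises. Of 26 Notch genes 8 were lower and 2 higher, where 6.07% of all genes were called lower and 6.03% higher. The ligands Dll1 and Dll4 and the target Hey1 fell with differences of -1.40, -1.51 and -1.18 (limma adjusted p = 8.98e-05, 0.000193 and 9.76e-05), without overlap, and Notch4, Heyl, Mfng, Numb and Jag2 fell with differences from -1.29 to -0.35. Dll4, Hey1 and Notch4 are known for their use in vessels. Nrarp, a feedback inhibitor of Notch, rose by 0.57 (SE 0.14, limma adjusted p = 0.0137), and Rbpj, the factor that takes Notch signals to DNA, was called higher (0.31) but not with the same sign in every pair, since it differed by -0.03 between Foxa2+/- and wild type. Of 35 Wnt genes 5 were lower and 3 higher. The secreted inhibitor Wif1 (-0.97), the feedback inhibitor Nkd2 (-1.65) and the effector Tcf7 (-0.84) fell, and Wnt7b, Rnf43 and Lgr6 rose. The higher Wnt count was 1 without Foxa2+/- replicate 12 or double-heterozygous replicate 17 and 6 without Falcor-/- replicate 7, and the lower count 8 without wild-type replicate 3.

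Of 31 genes of TGF-beta signalling, matrix and mesenchymal transition 13 were lower and 2 (Tgfb3 and Smad3) higher, with a median of -0.36. Over all genes 6.07% were called lower and 6.03% higher. Snai1, a repressor of epithelial genes, and the smooth muscle gene Tagln fell with differences of -1.03 and -0.98 (limma adjusted p = 4.81e-05 and 6.38e-05). The difference of Snai1 was -0.37 between Foxa2+/- and wild type and -1.70 between double-heterozygous and Falcor-/- libraries. Fibroblast growth factor genes gave 3 lower of 16, Fgfr4 (difference of -2.41), the stromal ligand Fgf7 (difference of -1.07) and Spry4, which did not have the same sign in every pair. With the endothelial mean as a covariate, 0 genes of the Notch, Wnt, TGF-beta, fibroblast growth factor, endothelial and mesenchymal lists passed, and the medians were -0.04, -0.01, -0.02, -0.04, -0.06 and -0.32. Without it the medians were -0.05, 0.004, -0.36, -0.05, -1.96 and -1.06, so those of the Notch, Wnt and fibroblast growth factor lists were near 0 in both fits. The covariate is the endothelial list's own mean. The endothelial level and the copy number cannot be told apart here, as the ranges of that level in the pools do not overlap. Of its variance 82.2% lies between genotypes, with wild type and Falcor-/- counted apart.

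Macrophage markers divided each pool. The mean of 22 markers of interstitial macrophages and monocytes was high in wild-type libraries, 11.82 ± 0.18 (SD, n = 5), and in Foxa2+/- libraries, 11.92 ± 0.31 (SD, n = 4). Double-heterozygous libraries had 9.34 ± 0.14 (SD, n = 4). In Falcor-/- it was 9.23, 11.33, 9.19, 11.47 and 9.57, so replicates 6, 8 and 10 were low like the double-heterozygous libraries. Across the pools only 1 of the 22 was called (Lyve1, lower, without the same sign in every pair), where 6.07% of all genes were called lower. With double-heterozygous libraries as the sole one-copy group 15 were lower, and with Foxa2+/- alone 2 were higher. Of all 15249 genes, 859 were lower in the first fit and 559 higher in the second. Alveolar macrophage markers gave 1 lower of 20 (Car4, which is also an endothelial gene), lymphocyte markers 0 of 17 and MHC class II genes 0 of 11. Granulocyte and mast cell markers gave 2 lower of 9 (Gata2 and Kit). Red cell and platelet markers gave 3 lower of 6, the globin genes Hbb-bs (-2.90) and Hba-a1 (-2.55) and the integrin gene Itgb3 (-0.67). Hbb-bs was at 8.71, 8.94, 6.74 and 5.11 in wild type, Falcor-/-, Foxa2+/- and double-heterozygous libraries. The globin genes share reads with close copies.

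**Figure D5:**
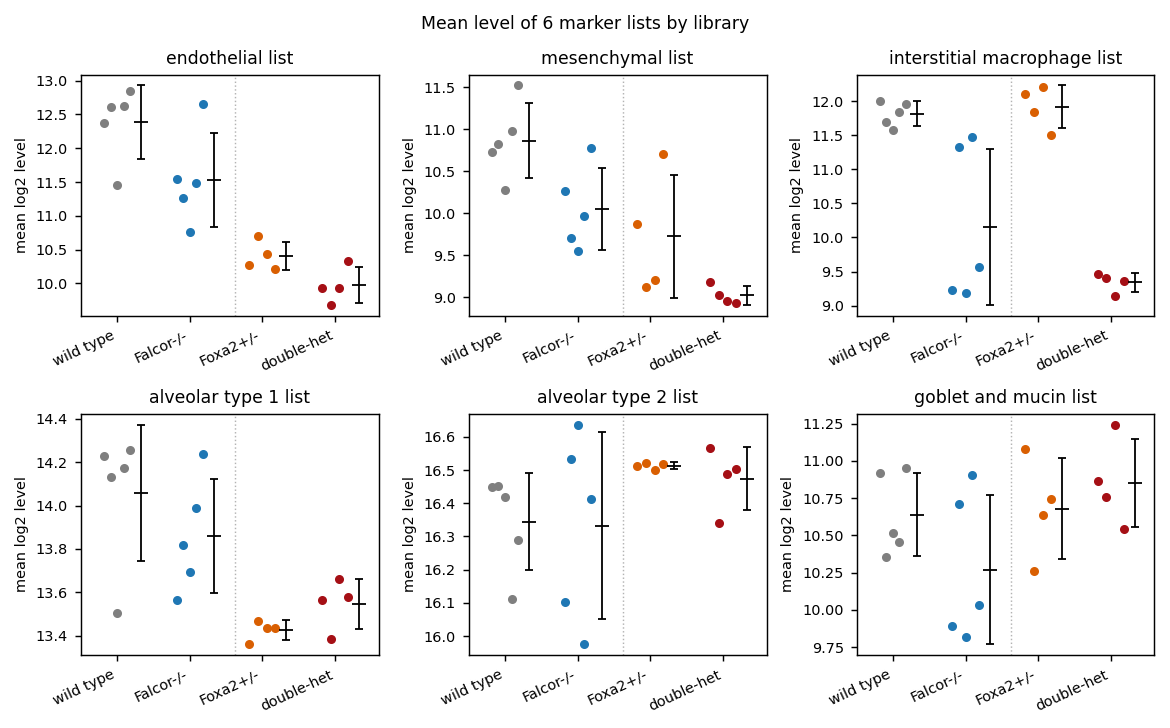
Mean log2 level of the genes of 6 marker lists in each library (points), with mean and SD at the right of each genotype (n = 5, 5, 4 and 4); the dotted line divides 2 Foxa2 copies on the left from 1 copy on the right. The endothelial mean separates the pools, the mesenchymal one does not because of a Foxa2+/- library at 10.70, and the interstitial macrophage mean divides each pool instead.

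Inflammatory and stress lists gave few calls. In either direction 11.1% of interferon response, 9.09% of immediate early and heat shock and 10.3% of NF-kB genes were called. Over all genes it was 12.1%, with 6.03% higher and 6.07% lower. Interferon response genes gave 4 lower of 36 (Ifit3, difference of -1.30, Ifit3b, Ifit2 and Xaf1). Immediate early and heat shock genes, which cell isolation can induce, gave 3 lower of 33 (Klf2, Jun and Ier3), and Klf2, also a flow-induced endothelial gene, differed by -0.72. NF-kB targets gave 2 higher of 29 (Birc3 and Lcn2, of which only Lcn2 had the same sign in every pair) and 1 lower (Icam1). That list's mean was 12.04 in Foxa2+/- and 11.10 in double-heterozygous libraries, around 11.47 and 11.49 in wild type and Falcor-/-. With Foxa2+/- as the sole one-copy group 9 of the 29 were higher and 0 lower, and with double-heterozygous libraries alone 0 were higher and 7 lower. Of all 15249 genes, 559 were higher and 821 lower in the first fit, and 650 higher and 859 lower in the second. Oxidative phosphorylation and cytosolic ribosomal protein genes gave 0 calls of 47 each in limma, cell cycle genes 1 of 40 (E2f1, lower) and unfolded protein response genes 2 of 28 (Asns and Ppp1r15a, lower). The oxidative phosphorylation gene with the smallest p was Sdha (0.10, limma adjusted p = 0.161). Among 29 genes near Foxa2 on chromosome 2, 3 were higher (Falcor, Cst8 and Ralgapa2) and 3 lower (Foxa2 and the endothelial genes Thbd and Cd93).

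The test between the 2 Falcor backgrounds was double-heterozygous minus Falcor-/- less Foxa2+/- minus wild type, which share no library. Foxa2+/- and wild type both carry 2 Falcor copies, while double-heterozygous libraries carry 1 and Falcor-/- libraries 0. Foxa2 and Falcor copies thus change together between double-heterozygous and Falcor-/- libraries. A Foxa2 effect that depends on Falcor and an effect of Falcor itself cannot be told apart. In limma 9 of 15249 genes (0.059%) passed, 1 higher (0.00656%) and 8 lower (0.0525%), and 1432 (9.39%) had an unadjusted p below 0.05. Of the 1717 genes with a shared sign 2 were among the 9. One is Falcor (difference of the differences 3.93, limma adjusted p = 0.000189), of which the Falcor-/- label gives 0 copies. The other is Phf24, a gene best known in neurons, with means of 12.01, 11.28, 10.60 and 7.58 in the usual order of genotypes. It differed by -1.41 between Foxa2+/- and wild type and by -3.70 between double-heterozygous and Falcor-/- libraries. The difference of these was -2.29 (SE 0.36, limma adjusted p = 0.0186). Phf24 missed the threshold without Falcor-/- replicate 10, Foxa2+/- replicate 13, Foxa2+/- replicate 14 or double-heterozygous replicate 18 (limma adjusted p = 0.0501 to 0.0722). Cxcl1, a neutrophil chemokine gene, went in opposite directions: it was at 11.01 in Foxa2+/- against 9.60 in wild type, and at 8.27 in double-heterozygous against 9.37 in Falcor-/- libraries (difference -2.52, SE 0.35, limma adjusted p = 0.00716). The pooled difference of Cxcl1 was 0.15 and did not pass. The number of genes called ran from 4 to 48 when single libraries were left out, with 48 without wild-type replicate 3.

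Most named calls held when single libraries were left out. Of 142 named genes that were called, 23 lost the call in at least 1 of these runs, with unchanged direction. With 1 genotype as a whole pool, and so fewer libraries, 25 (Falcor-/- alone), 26 (wild type alone), 32 (double-heterozygous alone) and 36 (Foxa2+/- alone) of the named genes lost the call. Beside Muc5ac and Muc5b, the rises lost with 1 library left out were Acaca, Chka, Foxp2, Gm8174, Gss, Irx2, Itm2a, Lcn2, Marveld3, Rbp2 and Txnrd1. The falls lost in these runs were Camk2b, E2f1, Gata3, Ier3, Itga6, Itgb3, Jun, Ppp1r15a, Tppp3 and Tuba1a. Itm2a was lost without Foxa2+/- replicate 12 (0.55, limma adjusted p = 0.0541) and Marveld3 without Foxa2+/- replicate 13 (0.18, limma adjusted p = 0.0549). The others were lost without any of 4 (Camk2b) to 14 (E2f1) libraries, at a limma adjusted p of at most 0.106 (Gm8174).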

How the data were processed

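Total RNA of EpCAM-captured cells was sequenced in 18 libraries. The authors deposited log2 levels of 15544 genes per library, from 1 to 18.73; per the submitters' processing notes, STAR, the mm9 genome and limma were used. For the counter, annotation, strand setting and versions: not given in the sources used here. Values of equal rank differed by at most 0.0512 between libraries in the top 90% of ranks, which is quantile normalization, so library totals cannot be recovered, depth is unknown and no counting interval is given. Symbols and chromosomes came from GENCODE vM21 (GRCm38) by identifier, for 14994 genes. Its start coordinates were used only to order the genes of chromosome 4.

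Genes with a mean below 6 were left out (295), leaving 15249. A model with 1 mean per genotype was fitted in limma 3.58.1 under R 4.3.3, using eBayes with its trend option (14 residual degrees of freedom). The contrast was the mean of both one-copy genotypes minus the mean of both two-copy genotypes, two-sided, with Benjamini-Hochberg adjustment over all genes and a threshold of 0.05. SEs and the test between backgrounds come from the same fit. Exact permutation tests used the 43758 regroupings of 8 and 10 libraries. The model was tested on simulated data.

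The text names the Foxa genes and Falcor; among called genes with the same sign in all 4 pairs and no overlap of pools, the 12 largest changes and the 10 others with the smallest p in each direction, without predicted genes, pseudogenes and receptor segments (8 left out); up to 3 called members of each list, or 2 where none was called; and the leading genes of the other tests. Some genes that this rule selects are not reported here. Further list members were named after their values were seen. The pooled comparison, the gene lists and the tests were chosen with earlier results of these data known.

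There were 33 alternatives: another model, filters, weights, covariates, a rank test, renormalization, single genotypes and each library left out.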

Additional observations from a re-analysis of the deposited data

Results flagged for a closer look

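In 5 of 128 groups of 4 or 5 libraries (3.91%) 1 library stood apart from the others by Dixon's test, where chance gives about 1 in 20. Wild-type replicate 3 was low for Dach1 (8.97, the others 10.06 to 10.38), for Hsd11b1 (10.16, the others 11.09 to 11.35) and for the mean of the alveolar type 1 list (13.50, the others 14.13 to 14.25). Wild-type replicate 5 was low for Adamts3 (6.59, the others 7.03 to 7.18), and Foxa2+/- replicate 13 for Hsd11b1 (8.16, the others 8.53 to 8.58).

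The limma test between the 2 Falcor backgrounds, in which 1 of the 2 genotype pairs also differs in Falcor copies, called 9 genes. The difference was 3.93 for Falcor (9030622O22Rik), -3.34 for Vcp-rs, -2.62 for Gm8174, -2.52 for Cxcl1, -2.29 for Phf24, -1.70 for 6330403K07Rik, -1.24 for Zfp605, -1.19 for Maff and -0.47 for Pi4k2a. Vcp-rs and Gm8174 resemble other genes or are predicted, so shared reads make their values uncertain. Falcor, Vcp-rs, Gm8174 and Cxcl1 were called with any 1 library left out. Phf24 lost the call in 4 of the 18 such runs, 6330403K07Rik in 12, Zfp605 and Pi4k2a in 13 each and Maff in 15 (limma adjusted p of at most 0.129), so that 4 of the 9 were left without Falcor-/- replicate 10, Foxa2+/- replicate 13 or double-heterozygous replicate 18.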

How the results depend on the processing

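Of 33 alternatives, the called count of 1845 and the same-sign count of 1717 stayed within 1.5 times except as follows. Library weights gave 2782 called, and 42 in the test between the Falcor backgrounds against 9. The exact rank-sum test gave 1121 and 1121. Leaving out Falcor-/- replicate 10 and Foxa2+/- replicate 14 together, chosen after the data were seen, gave 1166, 1090 and 2, with 37.6% of calls higher against 49.9%. With the endothelial list mean as a covariate 1 gene was called, Falcor (3.96), which also was the 1 with a shared sign. With the mesenchymal list mean, also added later, 31 and 23 were called, 21 of the 23 in common with the 1717. The cause was not tested. Single libraries left out gave 1339 (without Foxa2+/- replicate 12) to 2297 (without Falcor-/- replicate 7) called, 1266 to 2042 with a shared sign and 4 to 48 between backgrounds.

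Some named genes changed sign. With the endothelial covariate the estimates were Foxa1 -0.10, Rtkn2 0.066, Pdpn 0.21, Ddc 0.027, Lyve1 0.87, Ifit3 0.34, Ifit2 0.24, Klf2 0.12, Gata3 0.021, Hopx 0.032, Dll4 0.12, Nkd2 0.16, Spry4 0.083, Rbp2 -0.32, Irx2 -0.25, Cav1 0.15, Notch4 0.035, Mfng 0.0034, Akap5 0.33, Numb 0.14, Emp2 0.27, Vegfa 0.17, Clic5 0.17, Wwtr1 0.12, Sema3a 0.062, Foxp2 -0.080, Spock2 0.18 and Col4a3 0.24. Against wild type alone they were H2-DMb1 0.038, Sdhd 0.024, Zfp605 0.28, Ftl2-ps 1.46 and Rbpj -0.10, and against Falcor-/- alone Gm8174 -0.12. With Foxa2+/- alone as the one-copy group they were Rpl3 -0.043 and Vcp-rs 0.0078, with double-heterozygous alone Ddc 0.14, H2-DMb1 0.084, Birc3 -0.069 and Cxcl1 -1.22, and with Falcor copies as a covariate Cxcl1 -0.13.

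No paired analysis was possible. The replicate numbers run from 1 to 18 over all libraries, and the labels used here do not say which libraries of different genotypes were matched, if any. Depth is unknown, genes at the ceiling of the normalized scale can hide differences, and changes common to most genes are removed by quantile normalization.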

Other observations

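Phf24 and Vcp, on chromosome 4, lie 2 places apart among the tested genes. These genes were looked at after their values were seen. Phf24 differed by -3.02 between double-heterozygous and Foxa2+/- libraries (limma adjusted p = 1.66e-05). Vcp, which encodes an ATPase that extracts proteins for degradation, had means of 13.95, 13.96, 13.97 and 14.40 in wild-type, Falcor-/-, Foxa2+/- and double-heterozygous libraries, the last 0.42 above Foxa2+/- (limma adjusted p = 0.0635, which misses the threshold). Vcp-rs, a related sequence annotated on the X chromosome that can share reads with Vcp, was at 12.58, 12.80, 12.70 and 9.58. Dnajb5, between Phf24 and Vcp, was at 10.71, 10.65, 10.52 and 10.44 (double-heterozygous minus Foxa2+/- -0.08, limma adjusted p = 0.783).

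Over chromosomes with at least 100 tested genes, the share called with the same sign in all 4 pairs ran from 8.43% of the 498 tested genes of chromosome 19 to 14.4% of the 716 of chromosome 3, with 12.5% of the 1190 genes of chromosome 2, where Foxa2 lies.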
